A study of Mus musculus with 21 samples.

Results

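SLC16A1 clone 1 and clone 2 are lines of mouse embryonic stem cells (ESCs), pluripotent cells of the early embryo that renew themselves in culture. Both are named for the same gene, Slc16a1, and clone 2 was compared with clone 1 in each of 2 media, over 10 of the 21 libraries of the series, chosen by their labels alone. Slc16a1 encodes MCT1, a proton-coupled monocarboxylate carrier through which cells take up and release pyruvate and lactate.

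The SL groups, kept in serum with leukemia inhibitory factor (LIF), held 3 libraries of each clone. The SL2i groups, kept in the same medium with inhibitors of GSK3B and MEK, held 2 libraries of each clone. Every group had then spent 48 h in a mix of DMEM and NB medium with dialyzed serum and 0.2 mM sodium pyruvate, so no other pyruvate level enters here. Libraries of the line chr8A, 3 in SL and 2 in SL2i, are given as a reference level; they add to the estimate of spread but stand on neither side of a contrast. How the clones were altered, what distinguishes chr8A, and the strain, sex and passage of the lines are not given in the sources used here. Each clone is a single line, so what the edit did and how the lines otherwise differ cannot be told apart. Nothing in the labels says that replicates were separate cultures, and the p-values speak only of how far these libraries scatter, which can be a technical matter.

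ESCs kept in serum with LIF are a mixed population of naive cells and cells closer to differentiation. Blocking MEK and GSK3B holds them nearer the naive state, lowers ERK signalling and reduces DNA methylation. Imprinted genes are expressed from a single parental copy, according to methylation marks laid down in the germ line, and ESC lines are known to differ in them.

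Total counts were 15802072 to 30145771 per clone library in SL and 9784408 to 10908368 in SL2i, and clone 2 replicates 2 and 3 in SL were the deepest. The pluripotency gene Pou5f1 averaged 1108 CPM (read counts scaled to the library total) in clone 1 and 1181 CPM in clone 2 in SL, and 1375 and 1355 CPM in SL2i. The first principal component separated the clones in each medium, with 42.1% of the variance in SL and 37.5% in SL2i.

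These stretches of sequence are shown first because Plagl1 and Zrsr1 are the protein-coding imprinted genes, and Ndufa4 and Phf14 the adjacent pair, among the genes called in both media. They come from the RefSeq promoter table of build GRCm38.p6, which is older than the authors' GRCm39, and CpG dinucleotides, the sites of DNA methylation, are in capitals. Methylation itself was not measured. The stretches are chr10:13090582-13090831 before the start of the imprinted gene Plagl1, chr11:22971755-22972004 before that of the imprinted gene Zrsr1, and chr6:11907579-11907700, which lies upstream of both Ndufa4 and Phf14, all on the plus strand.
Plagl1: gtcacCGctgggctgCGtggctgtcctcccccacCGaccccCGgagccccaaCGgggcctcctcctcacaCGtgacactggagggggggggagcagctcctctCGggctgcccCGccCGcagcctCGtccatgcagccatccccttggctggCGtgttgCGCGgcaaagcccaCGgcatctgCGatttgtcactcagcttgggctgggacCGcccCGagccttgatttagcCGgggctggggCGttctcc
Zrsr1: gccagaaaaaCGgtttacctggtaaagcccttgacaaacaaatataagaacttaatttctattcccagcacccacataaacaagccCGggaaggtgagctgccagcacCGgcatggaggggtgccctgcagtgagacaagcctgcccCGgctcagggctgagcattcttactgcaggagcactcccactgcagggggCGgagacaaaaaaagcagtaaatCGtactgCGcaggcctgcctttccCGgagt
Ndufa4-Phf14: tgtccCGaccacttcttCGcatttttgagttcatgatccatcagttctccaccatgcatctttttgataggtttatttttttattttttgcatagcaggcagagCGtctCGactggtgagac
The Plagl1 stretch holds 19 CpGs in 250 bases and the Zrsr1 stretch 8, against a median of 6 in the 250 bases before the start over 32851 promoter windows. At least as many occur in 19.7% and 43.0% of the windows. Ndufa4 and Phf14 are read in opposite directions from starts 379 bases apart, and the 122 bases shown hold 4 CpGs, a number reached in the same length by 37.2% of the windows.

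In SL, 756 of 17178 tested genes (4.4%) differed between the clones, 291 higher (1.69%) and 465 lower (2.71%) in clone 2, by edgeR's quasi-likelihood test at an adjusted p (Benjamini-Hochberg) under 0.05. The typical difference was small, with a median size of 0.18 on the log2 scale among the called genes (1.14-fold). Of them, 34 reached 1.5-fold, and 8 higher and 7 lower genes reached 2-fold. In SL2i 27 genes differed (0.157%), 15 higher (0.0873%) and 12 lower (0.0699%), of which 3 and 1 reached 2-fold. The SL2i count was 16 without SL2i clone 1 replicate 2. The split of calls moved with the scaling: RLE factors gave 201 higher and 535 lower in SL and 9 higher and 12 lower in SL2i. Of the SL libraries, leaving out clone 2 replicate 3 (371 calls), clone 1 replicate 1 (393), clone 1 replicate 3 (468) or clone 2 replicate 1 (491) cut the SL count by over 1.5 times, as thinning all libraries to equal depth did (426).

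Genes called in the same direction in both media numbered 10 (0.0582% of those tested), and none was called in opposite directions. Slc16a1, Plagl1, Zrsr1 and Mycbp2 were lower in clone 2, and Samd9l, Thsd7a, Ndufa4, Phf14, Rian and Cacybp were higher. They are 1.32% of the SL calls and 37.0% of the SL2i calls, and the contrasts in the media share no clone library. Of the 10, all but Rian and Cacybp kept their call in both media in each of 21 alternative settings that gave an adjusted p.

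**Figure D1:**
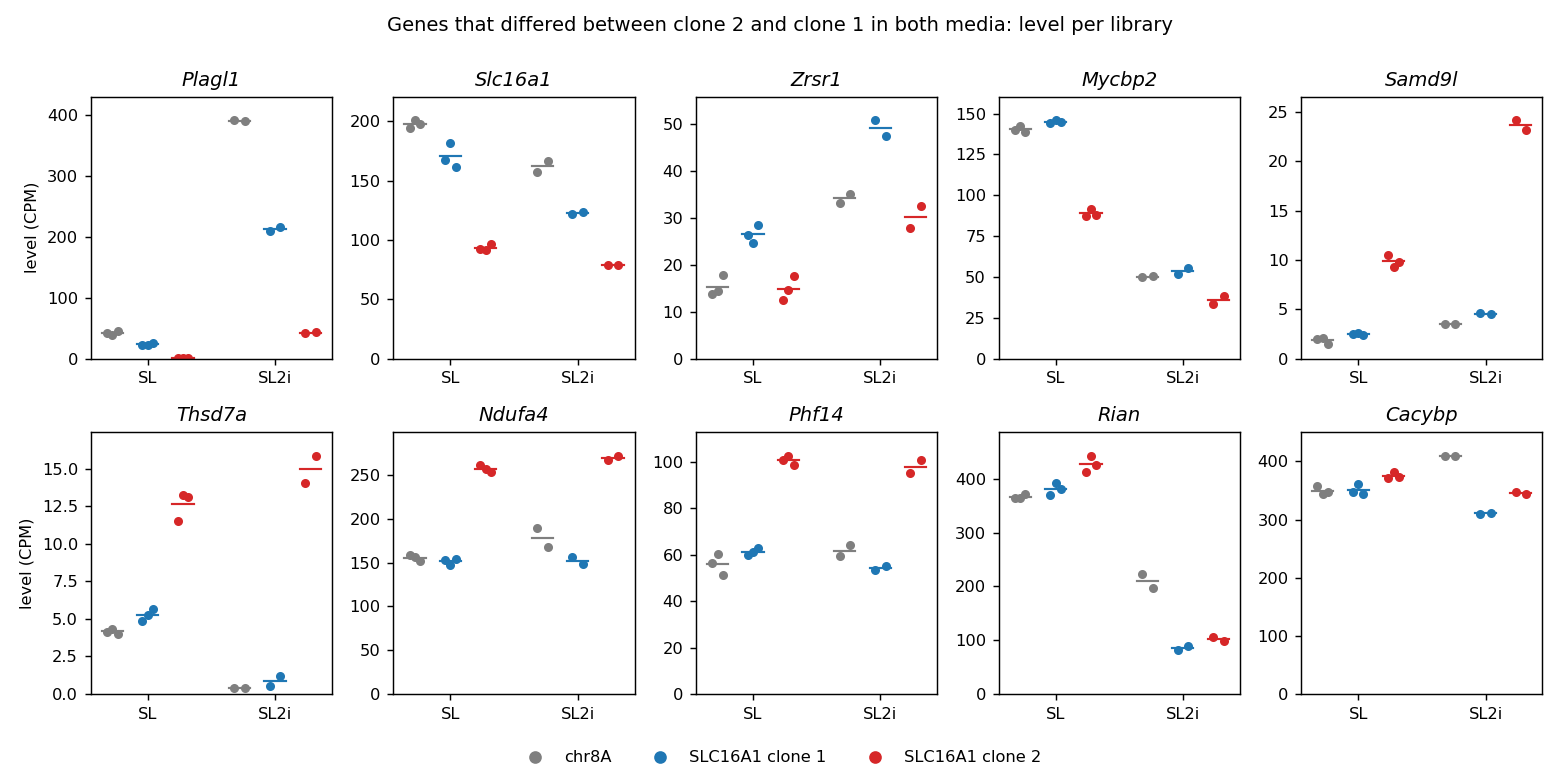
Level in CPM (vertical axes from 0) of the 10 genes called in both media, with 1 panel per gene, 1 point per library and a line at each group mean, for chr8A, clone 1 and clone 2 in SL and SL2i. In every panel the points of clone 2 lie to one side of those of clone 1 in the same medium, and the Plagl1 points of clone 2 in SL lie at 0.130 to 0.359 CPM.

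Slc16a1 itself (chromosome 3) differed in level between lines that carry its name. It stood at 168, 182 and 162 CPM in clone 1 and 92.8, 91.4 and 96.5 CPM in clone 2 in SL. In SL2i it stood at 122 and 123 CPM in clone 1 and 78.7 and 78.5 CPM in clone 2. The chr8A libraries held 195, 201 and 198 CPM in SL and 157 and 167 CPM in SL2i, so both clones lay below chr8A and clone 2 lay lowest in each medium, without overlap. Slc16a1 was 1.82-fold lower in clone 2 in SL (-0.87 ± 0.035 on the log2 scale, SE, adjusted p = 7.24e-40, edgeR) and 1.56-fold lower in SL2i (-0.64 ± 0.055, adjusted p = 6.31e-17). The interaction with medium did not pass (0.22 ± 0.065, adjusted p = 0.099). These are transcript levels and do not give the amount of protein.

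Of 24 tested genes of pyruvate and lactate handling, Slc16a1 among them, 1 was higher and 1 lower in each medium (of all tested genes, 1.69% and 2.71% in SL and 0.0873% and 0.0699% in SL2i), with median log2 fold changes of 0.035 in SL and 0.046 in SL2i beside 0.0055 and 0.0032 over all genes. The higher one in SL was Emb, which encodes embigin, a chaperone that brings monocarboxylate carriers to the cell surface. It held 306, 292 and 304 CPM in clone 1 and 326, 329.5 and 342 CPM in clone 2 (0.15 ± 0.03, adjusted p = 0.00043), with all of clone 2 above clone 1, and is uncertain because 17.6% of its 30-base words also occur in other genes. The higher one in SL2i was Dld, the dihydrolipoamide dehydrogenase of the pyruvate dehydrogenase complex. It held 80.5 and 85.0 CPM in clone 1 and 103 and 94.8 CPM in clone 2 (0.26 ± 0.055, adjusted p = 0.0137), and its call ended without SL2i clone 1 replicate 1 (0.258), SL2i clone 1 replicate 2 (0.0775) or SL2i clone 2 replicate 1 (0.323). None of 19 genes of NADH shuttles and NAD metabolism passed edgeR's test in either medium (4 in SL and 5 in SL2i at an unadjusted p under 0.05). DESeq2 called none of the 19, but it gave most genes no adjusted p in SL2i.

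Of the genes called in both media, Plagl1 had the largest difference in SL, while in SL2i those of Thsd7a and Samd9l were larger. Plagl1 encodes a zinc finger transcription factor of an imprinted locus on chromosome 10 that restrains growth. In SL it held 21.8, 22.3 and 24.9 CPM in clone 1 and 0.310, 0.130 and 0.359 CPM in clone 2, from 1224 and 20 reads. In SL2i it held 209 and 215 CPM in clone 1 and 41.2 and 43.0 CPM in clone 2. The chr8A line lay above both clones, at 42.3, 38.9 and 45.4 CPM in SL and 391 and 390.3 CPM in SL2i. Plagl1 was 86.7-fold lower in clone 2 in SL (-6.44 ± 0.15, adjusted p = 2.2e-58) and 5.03-fold lower in SL2i (-2.33 ± 0.061, adjusted p = 3.34e-54). The gap was narrower in SL2i by 4.11 ± 0.22 on the log2 scale (interaction, adjusted p = 1.71e-29). Its tested neighbours within 2 places did not pass. The one next to it, Hymai, a noncoding RNA that starts inside Plagl1 in the GRCm38.p6 annotation, had 2 and 3 reads in clone 1 and clone 2 in SL. In SL2i it had 37 and 11 reads and held 1.37 and 2.34 CPM in clone 1 and 0.594 and 0.480 CPM in clone 2 (-1.79 ± 0.59, adjusted p = 0.275), below clone 1 as for Plagl1, and without known use of strand in counting its reads and those of Plagl1 cannot be told apart. The other neighbours were Stx11 (-0.19 ± 0.18 in SL, -0.054 ± 0.71 in SL2i), Sf3b5 (-0.085 ± 0.044 and -0.035 ± 0.057) and Ltv1 (0.026 ± 0.035 and 0.11 ± 0.052).

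Zrsr1, an imprinted gene of an RNA splicing factor on chromosome 11, lay the other way round with respect to chr8A. In SL it held 26.4, 24.6 and 28.4 CPM in clone 1 and 12.4, 14.7 and 17.6 CPM in clone 2. The SL2i levels were 50.8 and 47.5 CPM in clone 1 and 27.9 and 32.6 CPM in clone 2. The chr8A levels, 13.9, 14.4 and 17.8 CPM in SL and 33.2 and 35.1 CPM in SL2i, were near those of clone 2, and clone 1 was the higher line. Zrsr1 was 1.74-fold lower in clone 2 in SL (-0.80 ± 0.091, adjusted p = 1.64e-07) and 1.62-fold lower in SL2i (-0.70 ± 0.12, adjusted p = 0.00123), and 8.30% of its words are shared with other genes, which makes it uncertain. The neighbours Commd1 (0.10 ± 0.046 and 0.15 ± 0.067) and Cct4 (0.014 ± 0.028 and 0.078 ± 0.035) did not pass.

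Mycbp2 (chromosome 14) encodes a very large E3 ubiquitin ligase known from axon growth. It held 144, 146 and 145 CPM in clone 1 and 87.6, 91.7 and 88.1 CPM in clone 2 in SL. The SL2i values were 51.6 and 55.6 CPM in clone 1 and 33.5 and 38.0 CPM in clone 2. With chr8A at 140.2, 143 and 139 CPM and 49.9 and 50.6 CPM, clone 1 lay near chr8A and clone 2 below both. The gene was 1.62-fold lower in SL (-0.70 ± 0.036, adjusted p = 7.34e-32) and 1.5-fold lower in SL2i (-0.58 ± 0.073, adjusted p = 5.38e-09). Over Slc16a1, Plagl1, Zrsr1 and Mycbp2 together, none of the 16 tested neighbours within 2 places on either side passed edgeR's test in SL or in SL2i, with 2 and 4 at an unadjusted p under 0.05.

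Chromosome 6 holds 4 of the 6 genes that were higher in both media, and 4.63% of all tested genes. Ndufa4, Phf14 and Thsd7a follow each other in gene order. Ndufa4 encodes a small subunit of cytochrome c oxidase in the respiratory chain, and it held 153, 147 and 155 CPM in clone 1 and 262, 257 and 253 CPM in clone 2 in SL. Its levels in SL2i were 156 and 148 CPM in clone 1 and 267 and 272 CPM in clone 2. The chr8A libraries (158, 156 and 151 CPM in SL, 189 and 168 CPM in SL2i) lay far below clone 2 in each medium. Ndufa4 was 1.69-fold higher in clone 2 in SL (0.76 ± 0.032, adjusted p = 1.27e-38) and 1.77-fold higher in SL2i (0.83 ± 0.044, adjusted p = 3.52e-30).

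Phf14, a PHD finger protein that binds histone H3, shares the upstream stretch shown above with Ndufa4. It held 59.7, 61.2 and 62.7 CPM in clone 1 and 101, 103 and 98.8 CPM in clone 2 in SL. Its SL2i levels were 53.4 and 55.2 CPM in clone 1 and 95.2 and 101 CPM in clone 2. The gene was 1.65-fold higher in SL (0.72 ± 0.043, adjusted p = 3.91e-27) and 1.80-fold higher in SL2i (0.85 ± 0.065, adjusted p = 1.41e-19). Of its words, 5.86% are shared with other genes.

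Thsd7a encodes a membrane protein with thrombospondin repeats. In SL it held 4.87, 5.26 and 5.63 CPM in clone 1 and 11.5, 13.2 and 13.1 CPM in clone 2. In SL2i it held 0.528 and 1.17 CPM in clone 1 and 14.1 and 15.8 CPM in clone 2, from 17 and 307 reads. Clone 2 was thus at a like level in both media, while clone 1 and chr8A (4.13, 4.35 and 4.01 CPM in SL, 0.387 and 0.395 CPM in SL2i) held less in SL2i than in SL. The gene was 2.42-fold higher in SL (1.28 ± 0.12, adjusted p = 3.94e-15) and 17.2-fold higher in SL2i (4.11 ± 0.26, adjusted p = 6.13e-25), and the interaction passed (2.83 ± 0.32, adjusted p = 3.48e-10). Without SL2i clone 1 replicate 2 these log2 values were 4.80 in SL2i and 3.53 for the interaction, and both calls were kept.

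The run ended at its neighbours. On its sides, Ica1 (-0.10 ± 0.11 in SL, -0.47 ± 0.32 in SL2i) and Tmem106b (-0.10 ± 0.056 and 0.10 ± 0.086) did not pass, and of the next 10 tested genes after Thsd7a 1 was called in SL, Cav1, which was lower. Samd9l, an interferon-inducible gene that restrains growth, lies nearer the start of the chromosome. It held 2.49, 2.54 and 2.36 CPM in clone 1 and 10.5, 9.26 and 9.80 CPM in clone 2 in SL. Its values in SL2i were 4.64 and 4.49 CPM in clone 1 and 24.2 and 23.1 CPM in clone 2. The chr8A libraries held 2.00, 2.10 and 1.44 CPM in SL and 3.48 and 3.46 CPM in SL2i, below both clones. Samd9l was 3.97-fold higher in clone 2 in SL (1.99 ± 0.14, adjusted p = 2.02e-21) and 5.18-fold higher in SL2i (2.37 ± 0.17, adjusted p = 5.74e-21). Beside it, Gm20559 was higher in SL (1.62 ± 0.46, adjusted p = 0.0191) and stood at 2.31 ± 0.60 in SL2i (adjusted p = 0.0852). Between Samd9l and Ndufa4 lie 29 tested genes, of which 1 was higher (Vps50) and 2 were lower (Peg10 and Asns) in SL and none passed in SL2i, with medians of 0.011 and 0.052. These neighbours were singled out after their values were seen.

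**Figure D2:**
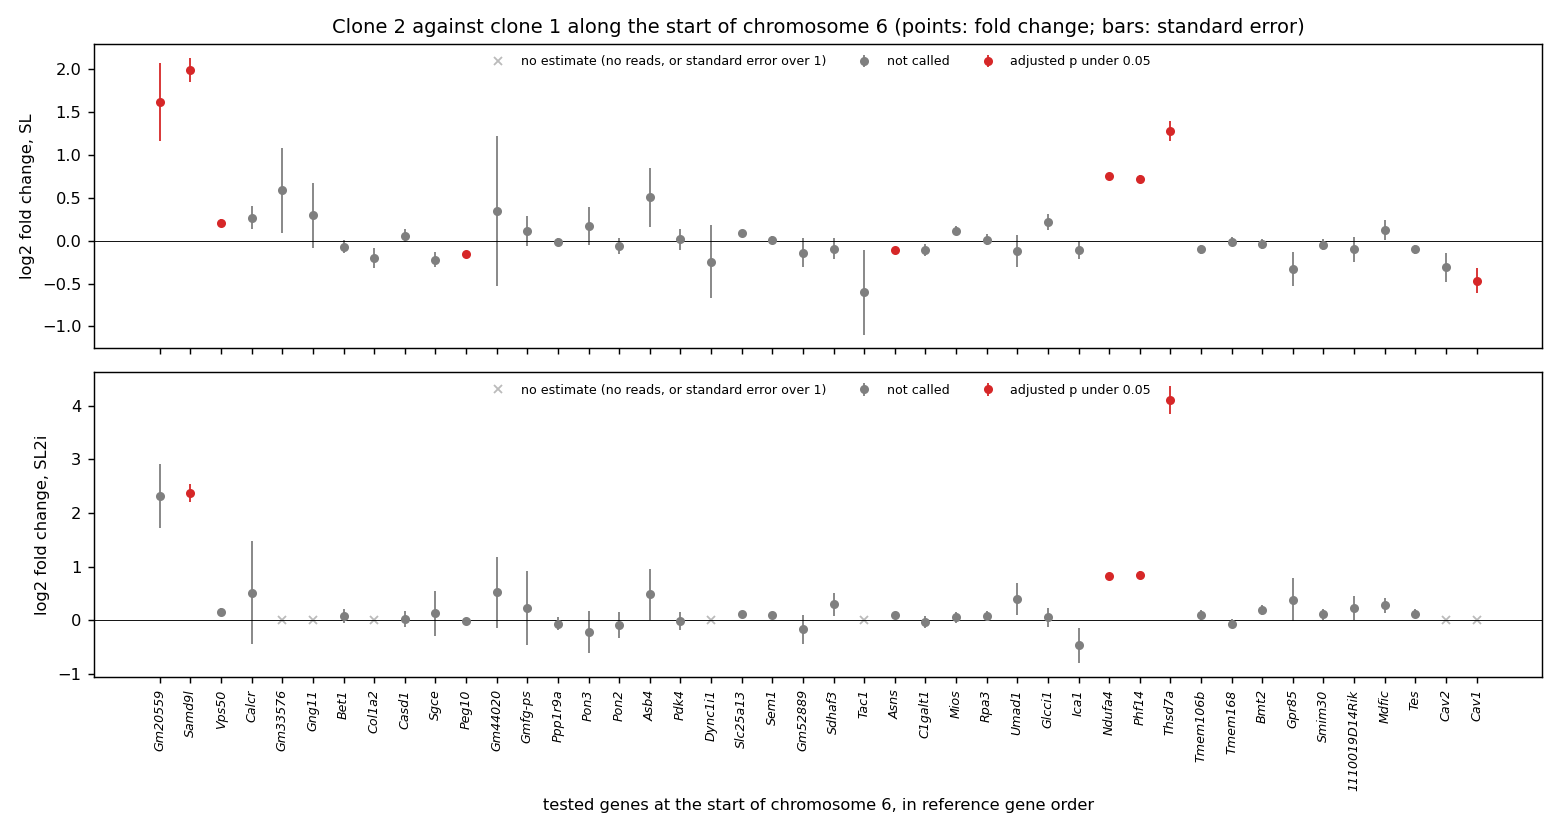
Log2 fold change of clone 2 against clone 1 (vertical axes) for tested genes at the start of chromosome 6 in reference gene order (horizontal axis), in SL and in SL2i, as points with standard errors; genes without a usable estimate are crosses. Samd9l and the run of Ndufa4, Phf14 and Thsd7a stand at 0.72 or above in both media, while the 29 genes between them have medians of 0.011 and 0.052.

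Rian and Cacybp were the weakest of the genes called in both media. Rian is a maternally expressed noncoding RNA of the imprinted Dlk1-Meg3 locus on chromosome 12, and it held 369, 392 and 380.5 CPM in clone 1 and 412, 443 and 426 CPM in clone 2 in SL (0.17 ± 0.031, adjusted p = 0.000111). In SL2i it held 81.4 and 89.5 CPM in clone 1 and 105 and 97.9 CPM in clone 2 (0.25 ± 0.055, adjusted p = 0.0263), with clone 2 above clone 1 in each medium. The chr8A libraries held 365, 365 and 371 CPM of Rian in SL, near clone 1, and 222 and 197 CPM in SL2i, above both clones. The SL2i call ended without SL clone 1 replicate 3 (0.0666), SL clone 2 replicate 3 (0.0594), SL2i clone 1 replicate 1 (0.418) or SL2i clone 2 replicate 1 (0.302). Its neighbour Meg3, of the same locus, was higher in SL (0.14 ± 0.032, adjusted p = 0.00184) and stood at 0.092 ± 0.066 in SL2i (adjusted p = 0.762). Of the words of Meg3, 11.5% are shared with other genes, which makes it uncertain, and Rian had no such value. Mirg, also on chromosome 12, was higher in SL (0.25 ± 0.071, adjusted p = 0.0191) and stood at 0.18 ± 0.19 in SL2i. Dlk1 (-0.013 ± 0.096) and Rtl1 (0.19 ± 0.18) did not pass in SL. Cacybp, whose protein binds the calcium sensor calcyclin, was 1.07-fold higher in SL (adjusted p = 0.019) and 1.11-fold in SL2i (adjusted p = 0.0466). Its SL2i call ended without each of the 10 clone libraries in turn (adjusted p 0.0773 to 0.403), its SL call ended without SL clone 1 replicate 1 (0.16), SL clone 1 replicate 3 (0.235), SL clone 2 replicate 2 (0.196) or SL clone 2 replicate 3 (0.0958), and 14.7% of its words are shared.

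Imprinted genes as a list went both ways. Of 33 tested, 3 were higher and 5 lower in SL, beside 1.69% and 2.71% of all tested genes. In SL2i 1 was higher (Rian) and 1 lower (Plagl1), beside 0.0873% and 0.0699%. The medians were -0.015 in SL and 0.09 in SL2i. The higher ones in SL numbered 1 without SL clone 1 replicate 1 or SL clone 2 replicate 3. Rian and Meg3, both higher in SL, are of the same locus. Igf2, a fetal growth factor gene, held 189, 168 and 179.6 CPM in clone 1 and 129.7, 139.7 and 127 CPM in clone 2 in SL (-0.44 ± 0.046, adjusted p = 2.61e-07) and 38.5 and 45.3 against 45.1 and 45.7 CPM in SL2i. The Igf2 interaction (0.55 ± 0.11, adjusted p = 0.0139) was lost without SL2i clone 1 replicate 1 (0.0659), SL2i clone 2 replicate 1 (0.117) or SL2i clone 2 replicate 2 (0.131), and 63.2% of its words are shared, so its level is uncertain. Peg10, a retrotransposon-derived gene needed in the placenta, held 1195, 1132 and 1189 CPM in clone 1 and 1060.3, 1078 and 1028 CPM in clone 2 in SL (-0.15 ± 0.029, adjusted p = 0.000109) and stood at -0.016 ± 0.046 in SL2i. Over windows of 25 tested genes in gene order, the median difference ran from -0.15 to 0.20 in SL and from -0.19 to 0.32 in SL2i.

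Genes called in SL had small median differences in SL2i. Of the 756 SL calls, 419 (55.4%) had the same sign in SL2i, beside 51.6% of all tested genes. Genes higher in SL had a median of 0.15 there and 0.021 in SL2i, and genes lower in SL had medians of -0.21 and -0.013. These genes were chosen by their SL values, which enlarges their SL medians but not those in SL2i. Smaller values in SL2i are therefore favoured by the choice of genes. The clone difference itself differed between media for 80 genes (0.466%) by the interaction test, 48 of them with the higher value in SL2i (0.279%) and 32 with the lower (0.186%). The count was 53 without SL clone 1 replicate 1, 47 without SL clone 2 replicate 3 or SL2i clone 1 replicate 2, and 28 without SL2i clone 1 replicate 1. Of the 80, 65 were SL calls, and 60 of those had the opposite sign in SL2i. The interaction test picks genes whose differences in the media lie far apart, so opposite signs are favoured by that choice. By themselves they do not show that a clone difference reverses between media. At equal depth and 2 SL libraries a group, a setting added after the data were seen, SL gave 147, 267 or 148 calls, depending on the replicate number left out, and SL2i gave 17, 16 or 23.

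**Figure D3:**
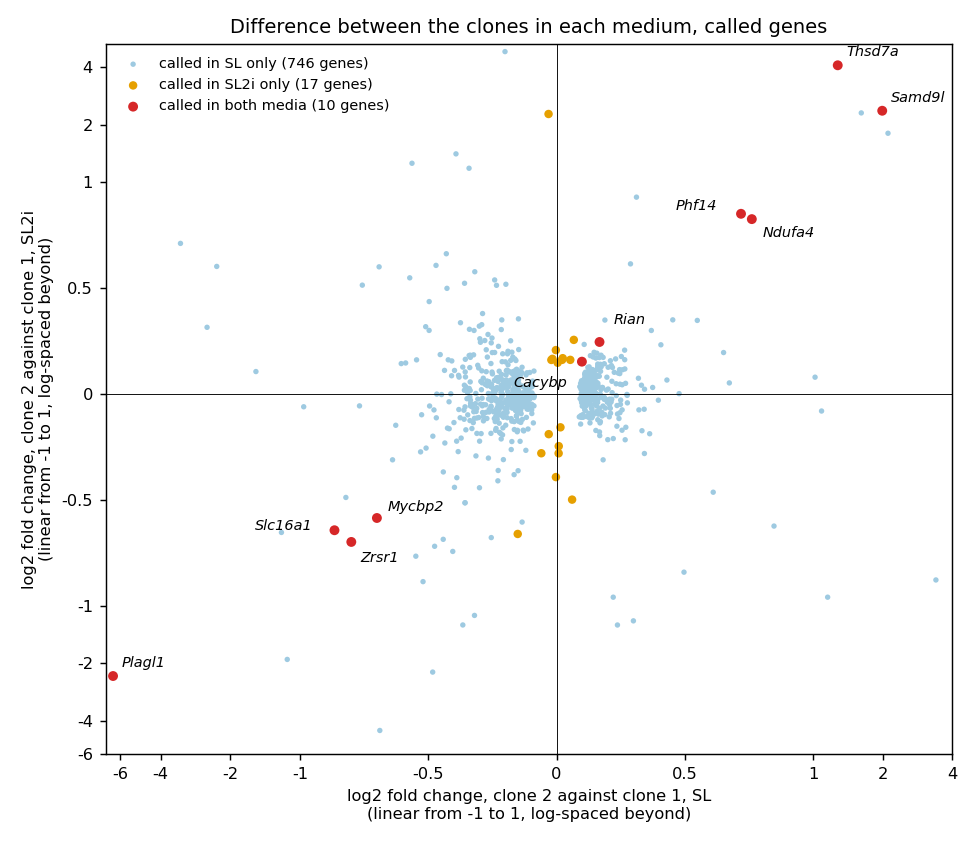
Log2 fold change of clone 2 against clone 1 in SL (horizontal axis) and in SL2i (vertical axis), linear from -1 to 1 and logarithmic beyond, for genes called in SL alone (746), in SL2i alone (17) or in both media (10, named). The 10 named genes have the same sign on both axes, and the SL calls have SL2i medians of 0.021 (those higher in SL) and -0.013 (those lower in SL).

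Outside the genes shared by both media, the SL differences named by size were in genes of moderate to low level. Tmem40, a gene of a transmembrane protein, held 4.23, 3.19 and 3.96 CPM in clone 1 and 4.59, 6.46 and 6.4 CPM in clone 2 (0.65 ± 0.14, adjusted p = 0.000837). Panct2, a long noncoding RNA, held 4.76, 4.37 and 4.37 CPM in clone 1 and 6.70, 6.46 and 6.66 CPM in clone 2 (0.55 ± 0.13, adjusted p = 0.00301). Bcl11a, a zinc finger repressor gene, was 1.41-fold higher (adjusted p = 0.0433), a call that ended without SL clone 1 replicate 1 (0.234), SL clone 1 replicate 3 (0.189), SL clone 2 replicate 1 (0.0646), SL clone 2 replicate 2 (0.308) or SL clone 2 replicate 3 (0.0589). Inhbb, the gene of an activin and inhibin subunit, was 1.37-fold higher (adjusted p = 0.0134), and its call ended without SL clone 1 replicate 1 (0.126), SL clone 2 replicate 1 (0.0566) or SL clone 2 replicate 3 (0.0833).

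Among those lower in SL, Trim67, a TRIM family gene of the nervous system, held 26.6, 30.5 and 29.6 CPM in clone 1 and 20.6, 21.8 and 17.1 CPM in clone 2 (-0.55 ± 0.075, adjusted p = 6.01e-08). Msln, which encodes the surface protein mesothelin, held 8.78, 8.27 and 7.41 CPM in clone 1 and 5.15, 5.28 and 5.26 CPM in clone 2 (-0.64 ± 0.13, adjusted p = 0.000283). Magea9, an X-linked gene of the MAGE family, held 8.36, 7.44 and 8.91 CPM in clone 1 and 5.95, 5.71 and 5.19 CPM in clone 2 (-0.56 ± 0.13, adjusted p = 0.00276). Serpinb9b, a protease inhibitor gene with 11.5% shared words, was 1.46-fold lower (adjusted p = 0.00165).

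Simple epithelial keratins, 4 in number, were lower in clone 2 in SL. Of 13 tested genes listed for trophoblast, the outer lineage of the early embryo, 1 was higher and 4 lower (of all tested genes, 1.69% and 2.71%), and the 4 were all keratins. The list median was -0.35 in SL and -0.034 in SL2i, where none passed. Krt18 held 357, 346 and 336 CPM in clone 1 and 262, 278 and 239 CPM in clone 2 (-0.42 ± 0.037, adjusted p = 1.07e-10) and its filament partner Krt8 held 346, 323 and 325 CPM in clone 1 and 277, 265 and 242 CPM in clone 2 (-0.35 ± 0.032, adjusted p = 2.06e-14), although 12.4% and 36.6% of their words are shared with other genes. Krt19 was 1.28-fold lower (adjusted p = 1.68e-10) and Krt7 1.35-fold lower (adjusted p = 1.18e-05). The lineage factors Cdx2 (1.198 against 0.772 CPM), Eomes (7.90 against 6.52 CPM) and Hand1 (3.22 against 2.22 CPM) did not pass, and Tfap2c was the higher one (0.16 ± 0.045, adjusted p = 0.0171), lost without 3 of the libraries, SL clone 1 replicates 1 and 2 and clone 2 replicate 3. The list summed to 896 to 949 CPM in clone 1 and 685 to 758 CPM in clone 2 in SL, and to 261 to 264 and 253 to 254 CPM in SL2i. In chr8A it summed to 842 to 866 CPM in SL, between the clones, and 179 to 192 CPM in SL2i, below both. In bulk RNA, fewer cells of a type and less RNA per cell cannot be told apart.

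Several genes of the actin cytoskeleton and targets of the serum response factor SRF were lower as well. Of 13 tested, none was higher and 8 were lower in SL, beside 1.69% and 2.71% of all tested genes, with a median of -0.14. None passed in SL2i, where the median was -0.016. Tpm1, which encodes tropomyosin, held 729.8, 742 and 763 CPM in clone 1 and 616, 665 and 609 CPM in clone 2 (-0.24 ± 0.028, adjusted p = 8.35e-11). Ccn1, a secreted matrix protein gene driven by SRF and YAP, held 224, 209.6 and 224 CPM in clone 1 and 179, 184 and 175 CPM in clone 2 (-0.29 ± 0.033, adjusted p = 5.45e-11). Acta2, smooth muscle actin, held 67.3, 71.9 and 67.0 CPM in clone 1 and 49.4, 62.5 and 50.3 CPM in clone 2 (-0.33 ± 0.063, adjusted p = 0.0012) and had 1 read per clone in SL2i. All clone 2 libraries lay below clone 1 for these 3 genes. In SL the list summed to 3815 to 3831 CPM in clone 1, 3479 to 3603 CPM in clone 2 and 3506 to 3552 CPM in chr8A. By this sum chr8A was near clone 2, and clone 1 was the higher line. The number of lower genes was 4 without SL clone 1 replicate 3, SL clone 2 replicate 1 or SL clone 2 replicate 3 and 5 without SL clone 1 replicate 1.

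Several basement membrane genes of the primitive endoderm list, named for the layer that forms the yolk sac, were lower in SL. Of 12 tested, none was higher and 4 were lower, beside 1.69% and 2.71% of all tested genes. The median was -0.15 (-0.033 in SL2i, where none passed). Col4a1 and Col4a2, the chains of collagen IV, held 133, 128 and 127 CPM in clone 1 and 106, 107 and 96.3 CPM in clone 2 (-0.33 ± 0.038, adjusted p = 1.07e-10) and 88.3, 84.9 and 81.2 CPM in clone 1 and 69.0, 67.8 and 62.3 CPM in clone 2 (-0.36 ± 0.044, adjusted p = 8.48e-10). Sparc, a collagen-binding glycoprotein gene, was 1.14-fold lower (adjusted p = 2.27e-06), and the laminin chain gene Lamc1 was 1.06-fold lower, a call that ended without SL clone 1 replicate 2 (0.173), SL clone 1 replicate 3 (0.179), SL clone 2 replicate 1 (0.0891), SL clone 2 replicate 2 (0.0629) or SL clone 2 replicate 3 (0.225). The lineage factors Gata6 (0.634 against 0.421 CPM) and Gata4 (4.88 against 4.25 CPM) did not pass. The list summed to 1538 to 1542 CPM in clone 1 and 1371 to 1416 CPM in clone 2 in SL. In chr8A it summed to 1560 to 1589 CPM there, above both clones. Of 12 tested fibroblast markers 1 was lower in SL (Col5a1, -0.34 ± 0.053, adjusted p = 2.49e-06), beside 2.71% of all tested genes, and nothing is read from that count. The fibroblast list summed to 120.4 to 126 CPM in clone 1 and 102 to 114 CPM in clone 2 in SL. In SL2i it summed to 28.1 to 29.7 and 28.8 to 32.3 CPM, and Col3a1, Col6a1, Dcn and Postn had no read in either clone. The part of such cells in these differences was not tested.

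Several targets of the tumour suppressor p53 were lower in clone 2 in SL. Of 20 tested, 8 were lower and 1 was higher, beside 2.71% and 1.69% of all tested genes, with a median of -0.15. Cdkn1a, which encodes the cell-cycle inhibitor p21, held 69.3, 61.8 and 66.2 CPM in clone 1 and 57.7, 57.3 and 55.2 CPM in clone 2 (-0.22 ± 0.043, adjusted p = 0.000295). Perp, a desmosome gene, held 145, 154 and 144 CPM in clone 1 and 130.1, 129.9 and 122 CPM in clone 2 (-0.22 ± 0.037, adjusted p = 1.8e-05). Clone 2 lay below clone 1 for both. Phlda3, a pleckstrin homology domain gene, was 1.16-fold lower (adjusted p = 0.000142) and Mdm2, the ligase that degrades p53, 1.11-fold lower (adjusted p = 0.000845). The higher member was Trp53 itself (0.094 ± 0.028, adjusted p = 0.0302), a call that ended without any of the 6 SL clone libraries. None passed in SL2i, where the median was -0.0046. In SL the list summed to 2908 to 2955 CPM in clone 1, 2807 to 2834 CPM in clone 2 and 2791 to 2862 CPM in chr8A. By this sum chr8A was near clone 2, and clone 1 was the higher line. The number of lower targets was 4 without SL clone 1 replicate 1 and 5 without SL clone 1 replicate 3, SL clone 2 replicate 2 or SL clone 2 replicate 3, and 4 at equal depth.

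Some genes of naive and some of formative pluripotency were slightly higher in clone 2 in SL. Of 18 naive genes 5 were higher (1.69% of all tested genes) and none lower, with a median of 0.095, and of 12 formative and primed genes 6 were higher and none lower, with a median of 0.16. Otx2, a transcription factor of the exit from the naive state, held 38.3, 37.3 and 41.7 CPM in clone 1 and 50.9, 47.2 and 53 CPM in clone 2 (0.36 ± 0.056, adjusted p = 1.33e-06). Esrrb, a naive-state nuclear receptor gene, held 227, 233 and 234 CPM in clone 1 and 259, 249 and 266 CPM in clone 2 (0.16 ± 0.03, adjusted p = 9.51e-05), and Nr0b1, another receptor gene of that state, held 38.3, 42.5 and 40.8 CPM in clone 1 and 51.9, 47.7 and 48.3 CPM in clone 2 (0.28 ± 0.051, adjusted p = 6.14e-05). Clone 2 lay above clone 1 for all 3. In SL the naive list summed to 2424 to 2431 CPM in clone 1, 2494 to 2622 CPM in clone 2 and 2787 to 2940 CPM in chr8A, above both clones. The formative list summed to 1868 to 1893 CPM in clone 1, 2038 to 2073 CPM in clone 2 and 1631 to 1671 CPM in chr8A, below both clones. In SL2i no member of these lists passed, with medians of -0.019 and -0.051, and Esrrb held 1099 and 1058 against 1010.1 and 1029 CPM there. The number of higher naive genes was 3 without SL clone 1 replicate 1, SL clone 2 replicate 1 or SL clone 2 replicate 3. That of higher formative genes was 3 to 5 without each of the 10 clone libraries in turn, with 3 without SL clone 2 replicate 3. It was 4 at equal depth. Of 8 core pluripotency genes 3 were higher in SL, a number that was 1 without SL clone 1 replicate 1, SL clone 1 replicate 2, SL clone 2 replicate 1, SL clone 2 replicate 2, SL clone 2 replicate 3, SL2i clone 1 replicate 1 or SL2i clone 1 replicate 2. It was also 1 under RLE factors, with DESeq2 and at equal depth, where the higher naive genes numbered 3.

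Of 8 genes of DNA methylation and its removal, 4 were higher and none lower in SL, beside 1.69% and 2.71% of all tested genes. The median was 0.10, and none passed in SL2i (median -0.039). Dnmt3a, a de novo methyltransferase gene also counted in the formative list, held 232, 233 and 226 CPM in clone 1 and 252, 261 and 259 CPM in clone 2 (0.16 ± 0.031, adjusted p = 0.000112). The others were its paralog Dnmt3b (0.11 ± 0.027), the cofactor Dnmt3l (0.10 ± 0.029) and the 5-methylcytosine oxidase Tet1 (0.17 ± 0.045). The number of higher genes was 1 without SL clone 1 replicate 1 or SL clone 2 replicate 3 and 2 without SL clone 1 replicate 3 or SL clone 2 replicate 1. DESeq2 called 2.

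In SL, the called members of the lists for glycolysis, fatty acid synthesis and cholesterol were lower in clone 2. Of all tested genes, 2.71% were called lower and 1.69% higher in SL. The glucose transporter gene Slc2a3 held 2152, 2096 and 2133 CPM in clone 1 and 1765, 1777 and 1752 CPM in clone 2 (-0.27 ± 0.027, adjusted p = 3.02e-13) and 1806 and 1761 against 1822 and 1844 CPM in SL2i, with a called interaction (0.31 ± 0.043, adjusted p = 9.81e-07). With Slc2a1, another glucose transporter gene (-0.14 ± 0.028, adjusted p = 0.000399), and Txnip, which curbs glucose uptake (-0.11 ± 0.035, adjusted p = 0.0418, lost without SL clone 1 replicate 1 (0.0548), SL clone 1 replicate 2 (0.347), SL clone 2 replicate 1 (0.125) or SL clone 2 replicate 3 (0.212)), it made up the 3 called of 19 glycolysis genes. Of 14 fatty acid synthesis genes 4 were lower, among them the desaturase gene Scd2, which held 828, 851 and 819 CPM in clone 1 and 689, 723 and 674 CPM in clone 2 (-0.26 ± 0.028, adjusted p = 7.01e-12; interaction 0.30 ± 0.045, adjusted p = 6.04e-06), and Scd1 (-0.19 ± 0.035, adjusted p = 0.000117). The number was 2 without SL clone 1 replicate 1 or SL clone 2 replicate 1. Of 25 cholesterol genes 5 were lower, with the sterol oxidase gene Msmo1 at -0.16 ± 0.035, adjusted p = 0.00171, and the number was 1 without SL clone 1 replicate 1 or SL clone 1 replicate 3 and 2 without SL clone 1 replicate 2 or SL clone 2 replicate 3 and 3 without SL clone 2 replicate 1. At equal depth 1 cholesterol gene was lower. The list medians in SL were 0.008, -0.074 and -0.084, and no gene of these lists passed in SL2i.

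**Figure D4:**
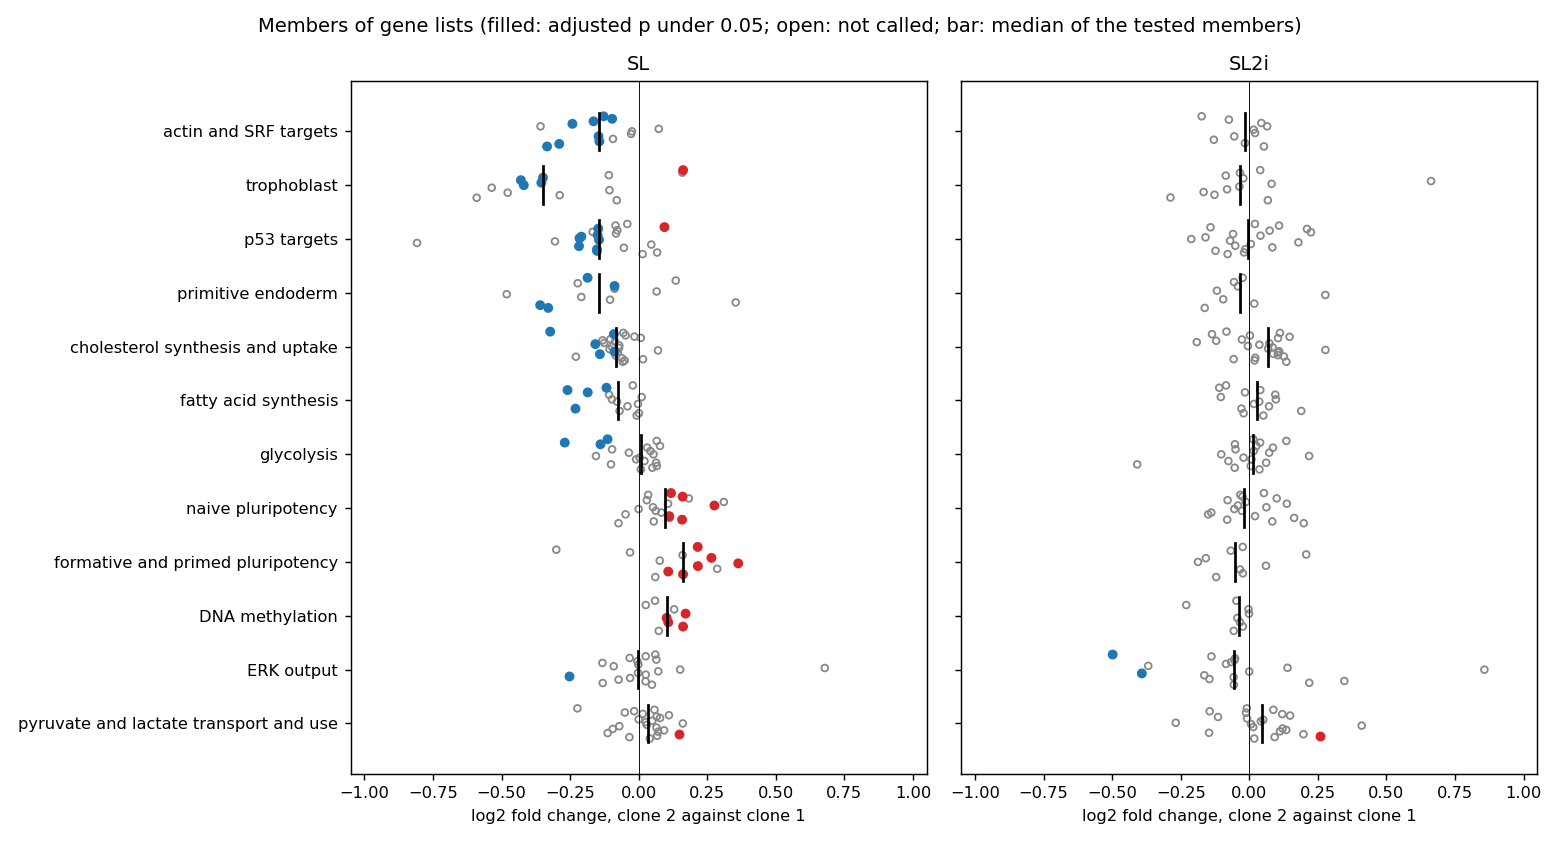
Log2 fold change of clone 2 against clone 1 (horizontal axes) for the members of 12 gene lists in SL (left) and SL2i (right), filled where the adjusted p is under 0.05 and open where not, with a bar at each list's median. Slc16a1 and members with no reads or a standard error over 0.5 are not drawn; 8 actin genes, 4 keratins and 8 p53 targets are filled to the left of 0 in SL, and 3 members are filled in SL2i.

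In SL2i, 17 genes were called that were not called in SL, 9 higher and 8 lower, of which 8 had a called interaction. Pcbp4, an RNA-binding protein gene, was 1.21-fold lower (adjusted p = 0.039), a call that ended without SL clone 1 replicate 3 (0.0542), SL clone 2 replicate 1 (0.0605), SL clone 2 replicate 3 (0.0547), SL2i clone 1 replicate 1 (0.0664), SL2i clone 1 replicate 2 (0.467), SL2i clone 2 replicate 1 (0.0562) or SL2i clone 2 replicate 2 (0.294). Atp6v1a, a subunit gene of the lysosomal proton pump, was 1.12-fold higher (adjusted p = 0.0257), which ended without all but 2 of the 10 clone libraries (SL clone 2 replicate 1 and SL2i clone 2 replicate 1), and Anp32a, a histone chaperone gene, 1.12-fold higher (adjusted p = 0.0335), which ended without each of the 10.

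The readouts of ERK signalling Spry4 and Etv4 were lower in clone 2 in SL2i, the medium in which MEK is inhibited. Spry4, a feedback inhibitor of the pathway, held 34.7 and 39.2 CPM in clone 1 and 24.2 and 28.2 CPM in clone 2 (-0.50 ± 0.084, adjusted p = 9.61e-05). In SL it held 157, 158 and 156 against 167, 158 and 166 CPM, and the interaction was -0.56 ± 0.091, adjusted p = 6.1e-05. Etv4, an ETS transcription factor gene, held 35.3 and 38.7 CPM in clone 1 and 30.6 and 25.9 CPM in clone 2 in SL2i (-0.39 ± 0.089, adjusted p = 0.0235). The chr8A libraries held 3.77 and 4.64 CPM of Spry4 and 9.66 and 11.1 CPM of Etv4 in SL2i, so clone 2 lay between clone 1 and chr8A. The SL2i call ended for Spry4 without SL2i clone 1 replicate 2 (0.0977) and for Etv4 without SL2i clone 1 replicate 2 (0.469) or SL2i clone 2 replicate 2 (0.5). These were 2 of 19 tested ERK genes, beside 0.0699% of all tested genes called lower in SL2i. None of the 19 was higher, and their median was -0.057. In SL 1 of the 19 was lower (Ets2, -0.26 ± 0.051, adjusted p = 0.000327), beside 2.71% of all tested genes. DESeq2 called none of the 19 in SL2i, where it gave most genes no adjusted p.

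Besides Plagl1 and Thsd7a, the largest called interactions were those of Magea9, Zfp867, Cryab, Steap2, Cadm4 and Id2, each with the higher difference in SL2i and none called in SL2i itself. Id2, which inhibits helix-loop-helix transcription factors, held 93.3, 87.0 and 90.8 CPM in clone 1 and 71.8, 72.3 and 70.4 CPM in clone 2 in SL (-0.34 ± 0.042, adjusted p = 8.48e-10) and 7.71 and 7.22 against 9.70 and 8.74 CPM in SL2i (adjusted p = 0.614). Magea9 held 1.37 and 0.488 against 2.18 and 2.21 CPM in SL2i (adjusted p = 0.253). Cryab, a small heat shock protein gene with 14.8% shared words, held 21.5, 19.8 and 23.1 CPM in clone 1 and 15.9, 16.5 and 13.03 CPM in clone 2 in SL (-0.51 ± 0.084, adjusted p = 8.55e-06) and 9.40 and 11.4 against 12.1 and 13.9 CPM in SL2i (adjusted p = 0.604). For these 3 genes clone 2 lay below clone 1 in SL and above it in SL2i in every library. Their interactions were 0.65 ± 0.16, adjusted p = 0.0359 for Id2 (lost without SL clone 1 replicate 1 (0.0636), SL clone 2 replicate 3 (0.0605), SL2i clone 1 replicate 1 (0.0961), SL2i clone 1 replicate 2 (0.272), SL2i clone 2 replicate 1 (0.247) or SL2i clone 2 replicate 2 (0.063)), 1.82 ± 0.43, adjusted p = 0.0164 for Magea9 (lost without SL2i clone 1 replicate 2 (0.378), SL2i clone 2 replicate 1 (0.0736) or SL2i clone 2 replicate 2 (0.0818), and at 2.72 without SL2i clone 1 replicate 1 and 1.23 without SL2i clone 1 replicate 2) and 0.83 ± 0.18, adjusted p = 0.00832 for Cryab (lost without SL2i clone 1 replicate 1 (0.119) or SL2i clone 2 replicate 2 (0.114)). The other 3 were Zfp867, a zinc finger gene, Steap2, a metal reductase gene, and Cadm4, a cell adhesion gene, and each of them lost its interaction without at least 4 of the 10 clone libraries, one at a time.

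The other lists held few called genes in SL, where 4.4% of all tested genes were called, and nothing is read from lists with 1 or 2 called members. In SL2i they held none except Samd9l in the interferon list. The interferon and antigen presentation list had 4 higher, Samd9l and 3 Ifitm genes, and 3 lower of 15, numbers that were 2 without SL clone 1 replicate 2, SL clone 1 replicate 3 or SL clone 2 replicate 3 (higher) and 0 without SL clone 2 replicate 3 and 1 without SL clone 1 replicate 1, SL clone 1 replicate 2 or SL clone 2 replicate 1 (lower). LIF and STAT3 targets had 2 lower of 10, Pim1 (-0.21 ± 0.029, adjusted p = 2.96e-08) and Pim3, the latter lost without SL clone 1 replicate 1 (0.0958), SL clone 1 replicate 3 (0.0631) or SL clone 2 replicate 3 (0.069). Nodal and activin genes had 1 higher and 2 lower of 12, BMP and Id genes 1 lower of 11, FGF ligands and receptors 2 higher of 11 (0 higher and 1 lower under RLE factors), ATF4 response genes 1 higher and 2 lower of 27, the TCA cycle 1 and 1 of 20 (0 and 1 under RLE factors), hypoxia response 1 and 1 of 14, NRF2 and glutathione genes 3 higher of 14, polycomb genes 2 higher of 14 and neuroectoderm 1 higher of 8. Each of these numbers except that of BMP and Id fell by 1 or more without at least 1 SL library. No gene passed in either medium of 10 Wnt, 17 germline, 5 sex chromosome, 5 mesoderm and 7 two-cell-like genes by edgeR. At an unadjusted p under 0.05 there were 2, 1, 1, 0 and 1 in SL and 1, 0, 1, 0 and 1 in SL2i. Under RLE factors 1 Wnt gene was lower in SL. DESeq2 called none, but gave no adjusted p for 5662 of 17178 genes in SL and 15653 in SL2i. In SL the two-cell-like list summed to 0.0591 to 0.230 CPM in clone 1 and 0.0620 to 0.228 CPM in clone 2. The mesoderm list summed to 4.19 to 6.13 and 4.11 to 5.15 CPM. At such levels a difference could hardly be called. Of the lists described above with no edgeR call in SL2i, the members at an unadjusted p under 0.05 there numbered 5 of the p53, 5 of the cholesterol, 4 of the glycolysis, 4 of the naive, 4 of the core pluripotency, 2 of the fatty acid, 2 of the primitive endoderm and 1 of the formative genes, and none of the trophoblast, actin, fibroblast and DNA methylation genes. DESeq2 called 1 gene each of the p53, cholesterol, glycolysis, fatty acid and nodal lists in SL2i. It called none of the other lists without an edgeR call there, but most genes had no adjusted p from DESeq2 in SL2i.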

How the data were processed

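RNA from mouse ESCs was measured by poly(A)-selected, stranded RNA-seq in 15 libraries of the table used here, 10 of them of the compared clones. The values are raw read counts per gene as deposited by the authors. Reads were processed with DRAGEN 3.10, featureCounts of Subread and build GRCm39, per the submitters' processing notes (strand use in counting: not given in the sources used here). Clone libraries held 9784408 to 30145771 counts each. Replicates of every group differed by more than sampling noise, and none was merged.

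Genes were filtered with filterByExpr, scaled with TMM factors and fitted together over the 15 libraries in 6 groups with edgeR 4.0.16 (R 4.3.3) by robust quasi-likelihood tests with Benjamini-Hochberg adjustment over 17178 genes, for clone 2 against clone 1 in each medium and for the difference between media (interaction). Levels are CPM on TMM-scaled library sizes, and standard errors come from the unshrunken coefficient and its F statistic. DESeq2 1.42.0, other scalings and filters, equal depth (9784408 counts), smaller sets of libraries, the replicate number as a block and leaving out each library were tried. The scripts were tested on simulated data.

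Named genes were Slc16a1, up to 15 genes per direction called in both media, 8 per direction and medium by fold change, the 8 largest called interactions (each with at least 5 CPM in the higher clone and no overlap between clones), up to 4 members per list by adjusted p, markers and neighbours in gene order; 1 gene that the rule names is not reported here. A gene is called uncertain where 5% or more of its 30-base words occur in transcripts of other genes. Gene order and names come from the GRCm38.p6 reference, to which 98.5% of tested genes matched. Members and the 32 gene lists were chosen with earlier results of these data known.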

Additional observations from a re-analysis of the deposited data

Results flagged for a closer look

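The difference between clone 2 and clone 1 differed between media, by edgeR's interaction test at an adjusted p under 0.05, for 21 of the genes named by rule. The rule takes up to 4 members per list, so other list members with a called interaction are not among them. The naive list held 3 called interactions, all lower in SL2i, of which Esrrb and Nr0b1 are given here. The p53 list held 2 higher and 1 lower. Each value is the log2 difference in SL2i minus that in SL, and groups of 2 or 3 libraries were too small to look for single outlying libraries. Higher in SL2i were the imprinted gene Plagl1 (4.11), the chromosome 6 gene Thsd7a (2.83), Magea9 (1.82), Zfp867 (0.84), Cryab (0.83), Steap2 (0.72), Cadm4 (0.66), Id2 (0.65) and Igf2 (0.55). The same direction was found for the keratin Krt8 (0.33) and the tropomyosin Tpm1 (0.31), and for metabolic genes, namely the glucose transporter Slc2a3 (0.31), the desaturase Scd2 (0.30), the asparagine synthetase Asns (0.21) and the sterol pathway enzyme Hmgcs1 (0.20), as well as for the LIF target Pim1 (0.24). Lower in SL2i were the ERK readouts Spry4 (-0.56) and Etv4 (-0.39), the naive-state receptors Nr0b1 (-0.32) and Esrrb (-0.24), and Pcbp4 (-0.29). Plagl1, Thsd7a, Scd2, Slc2a3 and Spry4 kept the call without each of the 10 clone libraries in turn, and the other 16 lost it without at least 1. The cause was not tested.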

How the results depend on the processing

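Slc16a1 was lower in clone 2 under every alternative with an adjusted p, by -0.81 to -0.91 in SL and -0.64 to -0.65 in SL2i. DESeq2 gave it no adjusted p in SL2i, as for 15653 of 17178 genes. The 756 SL calls became 487 with DESeq2, 1223 with only the compared groups fitted, 426 at equal depth, and 147, 267 and 148 at equal depth with 2 SL libraries per group. Without each library in turn they ranged from 371 to 807. The 27 SL2i calls became 43 with DESeq2, 47 with only the 10 clone libraries, 11 with only the compared groups, and 17 and 16 in 2 of the 3 settings at equal depth with 2 SL libraries per group. Leaving out single libraries gave 16 to 40. The 80 interactions became 153 with only the 10 clone libraries and 19, 45 and 18 at equal depth with 2 SL libraries per group, and 28 to 87 without single libraries. The genes called in both media numbered 8 to 11 without single libraries and 7 to 14 otherwise, the replicate block aside. Of the SL calls DESeq2 kept 473, of those in SL2i 13 and of the interactions 70. The cause was not tested.

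Replicate numbers are shared between clones, and the labels do not say whether they pair libraries. Deviations of same-numbered clone 1 and clone 2 libraries correlated at -0.024, 0.0085 and -0.015 in SL and -0.031 in SL2i over 11160 genes. Libraries of other numbers correlated at -0.035 to 0.052 in SL. The chr8A libraries were not part of this check, so pairing stays unsettled. With a replicate block the counts were 971 in SL, 72 in SL2i, 191 for the interaction and 17 for both media.

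The median standard error of a log2 fold change was 0.14 in SL2i and 0.083 in SL, so small differences were less detectable in SL2i. At equal depth SL gave 426 calls and SL2i 27.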
